A study of Mus musculus with 16 samples.

Results

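The creatine kinase and adenylate kinase energy shuttle was examined as a set of 9 genes, taken by their symbols from a deposited count table of 35682 genes. They are the creatine kinases Ckm, Ckmt2 and Ckb, the creatine transporter Slc6a8, the adenylate kinases Ak1, Ak3 and Ak4, and the AMP-activated protein kinase (AMPK) subunits Prkaa2 and Prkag2. All 9 symbols were found once in the table. RNA came from adult ventricular myocytes of 16 mice. Of these, 8 were B3AR-Tg, a transgenic line named for the beta-3 adrenergic receptor, and 8 were their wild-type (WT) littermates. Every animal in both groups had undergone transverse aortic constriction (TAC), surgery that narrows the aortic arch and overloads the left ventricle with pressure, 9 weeks earlier. There was no group without surgery, so the comparison is of genotype under pressure overload. Hearts were perfused by the Langendorff method to release the myocytes, which were then plated for an hour before RNA extraction. The labels name no age, sex or batch, and neither the promoter that drives the transgene nor the species of its receptor.

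Creatine kinase moves a phosphate group reversibly between ATP and creatine. In heart muscle a mitochondrial form, encoded by Ckmt2, makes phosphocreatine close to where ATP is produced, and the muscle form, encoded by Ckm, regenerates ATP beside the myofibrils and ion pumps. Adenylate kinases interconvert ATP, ADP and AMP, and the AMP they make is the signal that AMPK senses through its gamma subunit. Failing and hypertrophied hearts are known for a reduced creatine pool and reduced creatine kinase activity.

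For none of the 9 genes did a difference between genotypes pass the test, which does not show that their levels were equal. With edgeR's quasi-likelihood test and Benjamini-Hochberg adjustment over all 10945 tested genes, 0 of 9 had an adjusted p under 0.05, against 4.91% of all tested genes. The count at an unadjusted p under 0.05 was also 0, against 19.3% of all tested genes, and DESeq2 and limma voom called 0 of 9 as well. In 3 of the 28 alternatives 1 gene had an unadjusted p under 0.05 with edgeR. These were Ckmt2 with library size only (edgeR adjusted p = 0.181), Prkaa2 with the fibroblast and endothelial marker level as a covariate (edgeR adjusted p = 0.346) and Ckb without WT replicate 8 (edgeR adjusted p = 0.257). All 9 passed the filter on low counts. Estimated differences were small, from −0.17 (Prkag2) to 0.16 (Ckb) on the log2 scale, with a median of 0.08 over the 9 genes and 0.01 over all tested genes. The 95% interval of every one of the 9 lay within a fold of 0.710 and 1.36. Groups overlapped for all 9 genes, whereas 0.448% of all tested genes had groups that did not overlap.

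**Figure D1:**
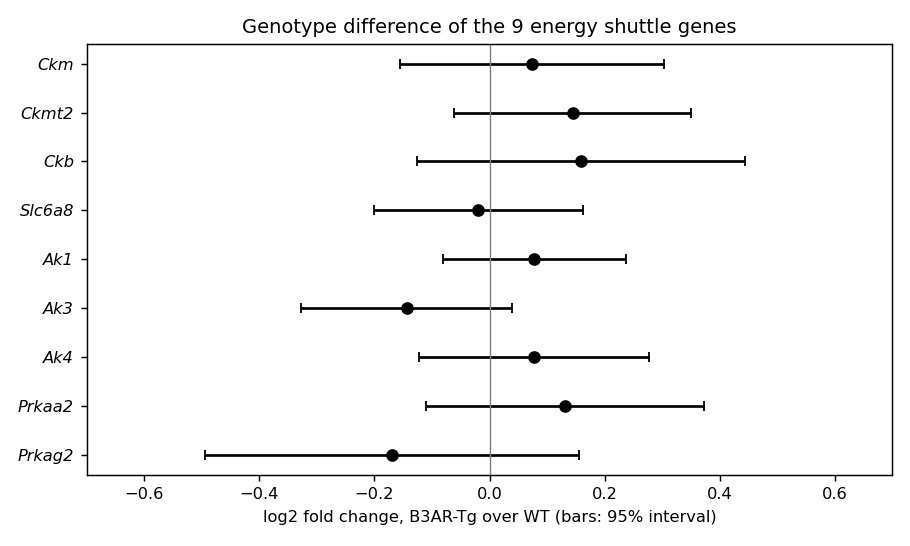
Log2 fold change of B3AR-Tg over WT on the horizontal axis for each of the 9 genes, with points at the edgeR estimate and bars for the 95% interval (8 animals per genotype). Every interval includes 0, and the widest is that of Prkag2.

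The libraries held between 5985335 and 14365864 counts, and 3 counts, taken as the floor of detection, corresponded to between 0.201 and 0.487 CPM. These totals were well below the number of reads that the labels' protocol states, for a reason not given in the sources used here. CPM here means counts per 1000000 library counts, with library sizes scaled by TMM factors. The 9 genes together took 0.340% to 0.454% of the counts in WT libraries and 0.382% to 0.540% in B3AR-Tg libraries. Mouse Adrb3 held 0 to 4 counts in every library, so the mouse receptor gene did not check the labels. Adgrb3, a different gene with a similar symbol, held 0 to 3 counts in WT and 247 to 723 in B3AR-Tg libraries, which separated the labelled genotypes. All 7 cardiomyocyte markers (Myh6, Tnnt2, Tnni3, Actc1, Ryr2, Pln and Mb) were detected, and their summed level was 40022 to 50958 CPM in WT and 45913 to 53748 CPM in B3AR-Tg. Of these 7, 1 was higher in B3AR-Tg (2.03% of all tested genes were). Fibroblast markers were lower in B3AR-Tg for 4 of 7 genes (2.88% of all tested genes were lower). Their summed level was 39.4 to 123 CPM in WT and 12.0 to 50.2 CPM in B3AR-Tg. Endothelial markers were lower for 2 of 6 genes, with sums of 74.9 to 114 CPM in WT and 33.6 to 139 CPM in B3AR-Tg. For mural and smooth muscle markers 0 of the 5 tested genes passed, with sums of 85.0 to 161 CPM in WT and 47.3 to 141 CPM in B3AR-Tg. All 5 load markers (Nppa, Nppb, Myh7, Acta1 and Ankrd1) were lower, at summed levels of 4805 to 18137 CPM in WT and 1920 to 6506 CPM in B3AR-Tg. In such bulk samples fewer cells of a type and less RNA per cell cannot be told apart.

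Promoters of the creatine kinases are shown first, because the muscle and mitochondrial genes followed each other from animal to animal within B3AR-Tg, and the brain-type gene was expressed at a much lower level. Each sequence runs 5′ to 3′ from 250 bases before to 50 bases after the transcription start in RefSeq on GRCm38.p6, a different build from the GRCm39 named in the submitters' processing notes. Of the 9 genes, 8 had an entry. Capitals mark matches on either strand to the E box CANNTG, the TATA motif TATANA or CCAAT, some of which overlap. The regions are chr7:19410844-19411143 on the plus strand (Ckm), chr13:91876836-91877135 on the minus strand (Ckmt2) and chr12:111672289-111672588 on the minus strand (Ckb).
Ckm: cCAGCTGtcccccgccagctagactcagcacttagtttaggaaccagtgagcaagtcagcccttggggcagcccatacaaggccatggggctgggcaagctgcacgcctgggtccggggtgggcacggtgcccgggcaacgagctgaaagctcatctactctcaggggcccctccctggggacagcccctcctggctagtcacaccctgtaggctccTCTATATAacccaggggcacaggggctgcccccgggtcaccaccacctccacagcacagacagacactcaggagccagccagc
Ckmt2: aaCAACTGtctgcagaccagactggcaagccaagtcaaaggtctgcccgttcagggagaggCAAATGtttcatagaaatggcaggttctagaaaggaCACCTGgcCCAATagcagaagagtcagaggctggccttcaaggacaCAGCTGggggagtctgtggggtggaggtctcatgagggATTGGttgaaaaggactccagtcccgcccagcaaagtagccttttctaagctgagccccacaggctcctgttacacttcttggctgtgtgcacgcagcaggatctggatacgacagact
Ckb: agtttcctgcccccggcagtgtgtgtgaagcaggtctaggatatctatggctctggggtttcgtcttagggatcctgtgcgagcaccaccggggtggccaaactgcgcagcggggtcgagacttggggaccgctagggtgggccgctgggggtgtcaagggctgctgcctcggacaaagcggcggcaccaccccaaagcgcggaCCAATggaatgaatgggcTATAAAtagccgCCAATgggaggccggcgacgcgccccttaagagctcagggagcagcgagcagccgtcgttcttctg

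The E box, a site that myogenic and other helix-loop-helix factors can bind, occurred 1 time in the Ckm window, 4 times in Ckmt2 and 0 times in Ckb. It was found in 72.3% of all 32851 promoter windows of this length. TATA matches began 33 and 31 bases before the start of Ckm and 28 bases before that of Ckb, and none was in the Ckmt2 window (24.7% of all windows held one). CCAAT was present 2 times each in Ckmt2 and Ckb and 0 times in Ckm (37.4% of all windows). A match to the MEF2 consensus, a site for a transcription factor of muscle, overlapped the TATA match of Ckb, and such matches were found in 3.19% of all windows. It also occurred in 1 of the 4 Ak1 windows. The motif AAGGTCA, known as a site of estrogen-related receptors and found in 4.72% of windows, was in none of these 3. Elsewhere in the set it occurred in 1 of the 4 Ak1 windows and in 1 Prkag2 window. These matches describe the letters in the windows only.

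Ckm (ENSMUSG00000030399, chromosome 7) encodes the cytosolic muscle creatine kinase. Its level in WT animals ran from 1337 to 1812 CPM with a median of 1629 CPM, and in B3AR-Tg animals from 1243 to 2187 CPM with a median of 1608 CPM. B3AR-Tg replicates 3 (2187 CPM) and 2 (2108 CPM) were above every WT animal, and replicate 7 was below every WT animal, so the transgenic animals spread to both sides of the WT range. The means were 1587 ± 169 CPM (SD, n = 8) in WT and 1671 ± 332 CPM (SD, n = 8) in B3AR-Tg. This is a fold difference of 1.05 with a 95% interval of 0.898 to 1.23 (edgeR adjusted p = 0.762).

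Ckmt2 (ENSMUSG00000021622, chromosome 13) encodes the sarcomeric mitochondrial creatine kinase. It ran from 1475 to 1967 CPM in WT, with a median of 1696 CPM, and from 1497 to 2296 CPM in B3AR-Tg, with a median of 1809 CPM. B3AR-Tg replicates 1, 2 and 3 lay above all WT animals, the other 5 within the WT range. The fold difference was 1.11 with a 95% interval of 0.958 to 1.27 (edgeR adjusted p = 0.450). The ratio of Ckm to Ckmt2 counts within an animal averaged −0.09 ± 0.11 on the log2 scale in WT and −0.17 ± 0.11 in B3AR-Tg (SD, n = 8 each), and the groups overlapped.

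Ckb (ENSMUSG00000001270, chromosome 12), the brain-type isoform that is also made in smooth muscle and many other cells, was low in these preparations. WT animals held 13.9 to 28 CPM with a median of 18 CPM, and B3AR-Tg animals held 16.3 to 29.5 CPM with a median of 19.9 CPM. One animal in each group stood highest, WT replicate 8 at 28 CPM and B3AR-Tg replicate 1 at 29.5 CPM. Between genotypes the fold difference was 1.12, with a 95% interval of 0.917 to 1.36 (edgeR adjusted p = 0.557). Its log2 value of 0.16 became 0.27 without WT replicate 8 and 0.07 without B3AR-Tg replicate 1 (edgeR adjusted p = 0.257 and 0.815). Fibroblast and endothelial markers, whose levels are given above, were lower in B3AR-Tg. With their level as a covariate the log2 value of Ckb was 0.07 (edgeR adjusted p = 0.944). That level differed between genotypes, so its part in the Ckb value and that of genotype cannot be told apart. A processed pseudogene, Gm12892, shares 96.8% of 1149 bases with Ckb, and it held at most 1 count in any library.

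Slc6a8 (ENSMUSG00000019558, chromosome X) encodes the transporter that brings creatine into the myocyte. Its level was 95.8 to 128 CPM in WT (median 115 CPM) and 103 to 142 CPM in B3AR-Tg (median 105 CPM). Transgenic replicates 3, 4, 5, 6 and 8 sat close together between 103 and 105 CPM, while replicates 1 and 7 were above every WT animal at 142 and 132 CPM. The fold difference, 0.986 with a 95% interval of 0.870 to 1.12 (edgeR adjusted p = 0.935), was the closest to 1 of the 9 genes. Its log2 value of −0.02 changed sign when any 1 of 6 animals was left out (WT replicates 2 or 8, B3AR-Tg replicates 3, 5, 6 or 8), reaching at most 0.0078.

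The adenylate kinases differ in where they act. Ak1 (ENSMUSG00000026817, chromosome 2), the main cytosolic form of muscle, was at 290 to 398 CPM in WT (median 317 CPM) and 301 to 381 CPM in B3AR-Tg (median 343 CPM). WT replicate 7 was the highest of all 16 animals, and no B3AR-Tg animal lay outside the WT range. The fold difference was 1.06 with a 95% interval of 0.945 to 1.18 (edgeR adjusted p = 0.620).

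Ak3 (ENSMUSG00000024782, chromosome 19), a GTP:AMP phosphotransferase of the mitochondrial matrix, had the smallest p-value of the 9 genes. It was 87.0 to 133 CPM in WT (median 105 CPM) and 80.4 to 109 CPM in B3AR-Tg (median 92.7 CPM), and 6 of 8 B3AR-Tg animals were below the WT median. Its fold difference was 0.905, with a 95% interval of 0.797 to 1.03 (unadjusted p = 0.118, edgeR adjusted p = 0.396). Without WT replicate 7 its log2 value moved from −0.14 to −0.09 (edgeR adjusted p = 0.611), and Ak1 then had the smallest p-value of the 9 genes. A transcript of Ak3 shares 431 identical bases with the neighbouring gene Cdc37l1, so how reads there were divided between both genes is uncertain.

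Ak4 (ENSMUSG00000028527, chromosome 4), a further matrix form, was at 32.1 to 49.7 CPM in WT (median 40.8 CPM) and 36.6 to 49.0 CPM in B3AR-Tg (median 42.1 CPM). All transgenic animals lay inside the WT range. B3AR-Tg over WT was 1.05-fold, with a 95% interval of 0.918 to 1.21 (edgeR adjusted p = 0.710). A processed pseudogene, Ak3l2-ps, shares 99.6% of 672 bases with Ak4 and held 0 to 4 counts per library.

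Of both AMPK genes in the set, Prkaa2 spread more widely in B3AR-Tg than in WT and Prkag2 varied in both genotypes. Prkaa2 (ENSMUSG00000028518, chromosome 4) encodes the alpha-2 catalytic subunit that predominates in striated muscle. It ran from 171 to 238 CPM in WT (median 201 CPM) and from 146 to 279 CPM in B3AR-Tg (median 225 CPM). Transgenic replicates 1, 6, 7 and 8 lay above every WT animal, and replicate 3 lay below every WT animal. The standard deviation of log2 CPM was 0.16 in WT and 0.32 in B3AR-Tg, and the difference in spread was not tested. The fold difference in level was 1.1 with a 95% interval of 0.927 to 1.29 (edgeR adjusted p = 0.568).

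Prkag2 (ENSMUSG00000028944, chromosome 5) encodes the gamma-2 subunit, which binds adenine nucleotides and is mutated in a human cardiomyopathy with glycogen storage. WT animals were at 13.5 to 26.9 CPM (median 16.2 CPM) and B3AR-Tg animals at 10.02 to 19.1 CPM (median 16.2 CPM). The upper end of the WT range came from replicates 4 (26.9 CPM) and 8 (23.4 CPM), and B3AR-Tg replicate 3 was lowest, as it was for Prkaa2. With 83 to 301 counts per library it had the fewest counts of the 9 genes, and its interval was the widest. Its fold difference was 0.889, with a 95% interval of 0.710 to 1.11 (edgeR adjusted p = 0.589).

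**Figure D2:**
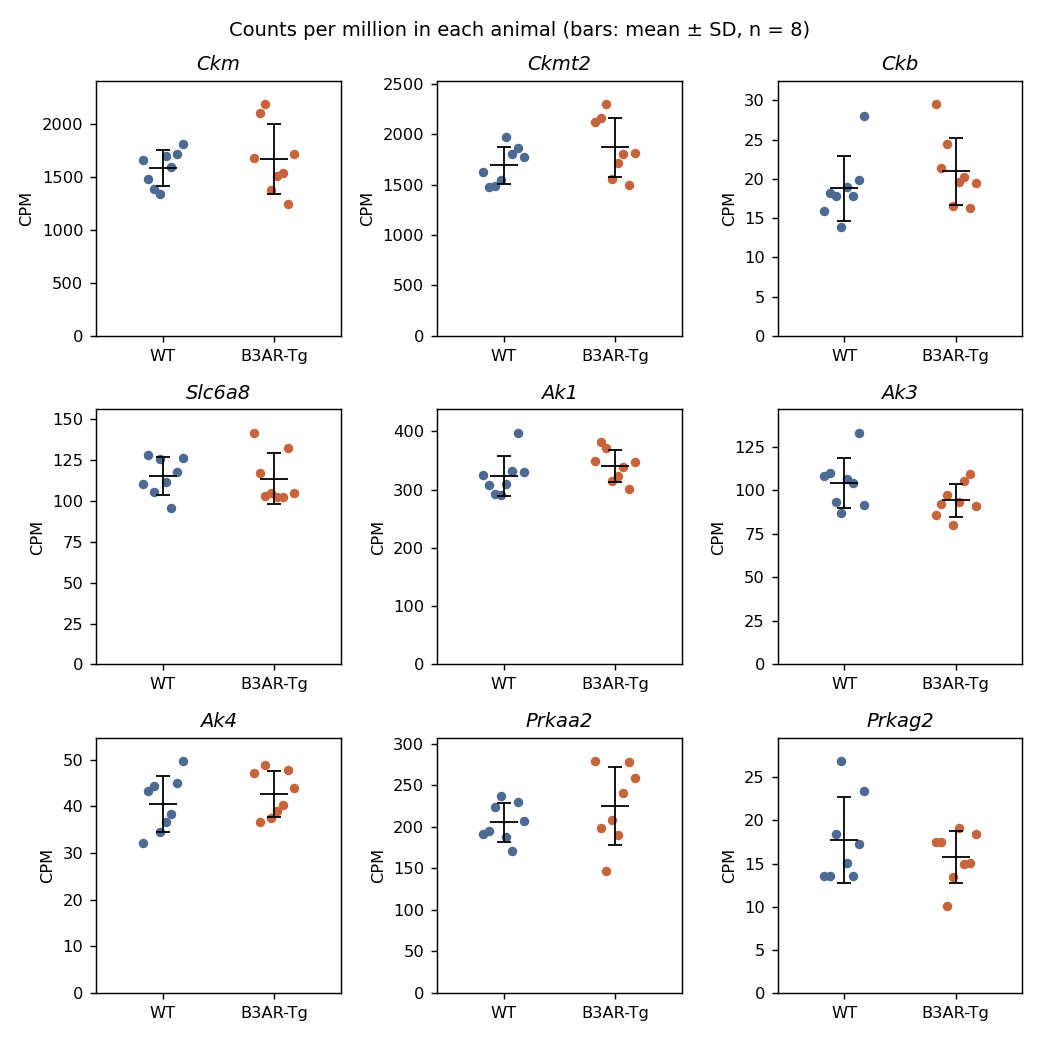
CPM (vertical axes, starting at 0) of the 9 genes in each of the 8 WT and 8 B3AR-Tg animals, with horizontal bars at the mean and error bars of 1 SD. The groups overlap in every panel, and Prkaa2 and Ckm spread more widely among B3AR-Tg animals than among WT animals.

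Levels between genes were compared per kilobase of the annotated principal transcript (GENCODE M21). In WT the order was Ckmt2 at 1138 ± 124 CPM per kb, Ckm at 579 ± 61.6, Ak1 at 155 ± 16.4, Ak3 at 37.2 ± 5.15, Slc6a8 at 34.8 ± 3.47, Prkaa2 at 25.8 ± 2.93, Ckb at 12.8 ± 2.81, Ak4 at 9.67 ± 1.44 and Prkag2 at 5.31 ± 1.504 (SD, n = 8). Neighbours whose ranges over WT animals overlapped were Ak3 and Slc6a8, Slc6a8 and Prkaa2, Ckb and Ak4, and Ak4 and Prkag2. In B3AR-Tg Slc6a8 (34.3 ± 4.65) stood just above Ak3 (33.6 ± 3.42), with overlapping ranges, and the other places in the order were equal. The order of both main creatine kinases depended on the transcript assumed for Ckm. Its coding transcripts run from 1235 to 2742 bases, and with the shorter one Ckm would be at 1285 CPM per kb in WT and above Ckmt2. Likewise, with its shortest coding transcript of 2151 bases Slc6a8 would be at 53.6 CPM per kb in WT and above Ak3. Prkaa2 made up 87.0% ± 2.34 of the catalytic AMPK transcripts in WT and 87.1% ± 2.29 in B3AR-Tg, the rest being Prkaa1.

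Although their group means were close, Ckm, Ckmt2 and Ak1 rose and fell together among the B3AR-Tg animals. Levels were correlated within each genotype for all 36 pairs of the 9 genes, which makes 72 relations, on log2 CPM with exact permutation of the 8 animals and Benjamini-Hochberg adjustment over the 72. Of these, 3 passed and all 3 were in B3AR-Tg, and 10 had an unadjusted exact permutation p under 0.05. Ckm and Ak1 had a Pearson r of 0.975 (exact permutation p = 0.000198, adjusted p = 0.0143) and a Spearman rho of 0.952 (exact permutation p = 0.00114, adjusted p = 0.0274), and r was 0.975 without the 2 animals farthest from the median of Ckm. Ckm and Ckmt2 had an r of 0.936 (exact permutation p = 0.000818, adjusted p = 0.0232) and a rho of 0.976 (exact permutation p = 0.000397, adjusted p = 0.0143), with an r of 0.874 without the 2 outermost animals. Ckmt2 and Ak1 had an r of 0.944 (exact permutation p = 0.000967, adjusted p = 0.0232) and a rho of 0.976 (exact permutation p = 0.000397, adjusted p = 0.0143). Without the 2 animals farthest from the median of Ckmt2 their r was 0.905. B3AR-Tg replicates 2 and 3 were the highest and replicate 7 the lowest of the group for all 3 genes. Ckb also had a positive r with each of these 3 genes in B3AR-Tg, and none of those relations passed. Its r was 0.860 with Ckmt2, 0.640 with Ckm and 0.687 with Ak1 (exact permutation adjusted p = 0.0929, 0.499 and 0.382). The corresponding rho values were 0.857, 0.738 and 0.833.

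In WT animals 0 of the 36 pairs passed after adjustment, and 6 had an unadjusted exact permutation p under 0.05. Of the 6, Ak1 and Ak3 had an r of 0.803, Ckb and Ak4 0.793, Prkaa2 and Prkag2 0.752, and Ckm and Ckb 0.722. Their adjusted p-values by exact permutation were 0.230, 0.154, 0.271 and 0.271. Without the 2 animals farthest from the median of the first gene of each pair, r was 0.123, 0.687, 0.549 and 0.650. In WT, Ckm and Ckmt2 had an r of 0.776 (exact permutation p = 0.0304, adjusted p = 0.271) and a rho of 0.690, with an r of 0.675 without the 2 outermost animals. Ckm and Ak1 had an r of 0.684 (exact permutation p = 0.0491, adjusted p = 0.353) and a rho of 0.786, and r fell to 0.385 without them. Ckmt2 and Ak1 had an r of 0.590 (exact permutation p = 0.106, adjusted p = 0.542) and a rho of 0.667. Without the 2 animals farthest from the median of Ckmt2 their r was 0.870. Whether the relations differ between genotypes was not tested. The points of a pair share a library and its scaling, and the mean log2 CPM of fibroblast and endothelial markers varied among the same animals. Against that marker level the r in B3AR-Tg was −0.639 for Ckm, −0.604 for Ckmt2 and −0.637 for Ak1 (exact permutation adjusted p = 0.651, 0.688 and 0.651 over 36 relations). The corresponding rho values were −0.619, −0.667 and −0.714, and r without 2 animals was −0.802, −0.911 and −0.837. None of these passed, and the part of other cells in the relations among the 3 genes was not tested.

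Prkaa2 did not follow Ckm. Among B3AR-Tg animals their r was −0.589 (exact permutation p = 0.126, adjusted p = 0.565) with a rho of −0.381. Without replicates 2 and 3, the 2 animals farthest from the median of Ckm, r was 0.109, so its sign rested on those animals. Replicate 3 was highest for Ckm and lowest for Prkaa2. Replicate 7, which was not left out, was lowest for Ckm and near the top for Prkaa2.

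**Figure D3:**
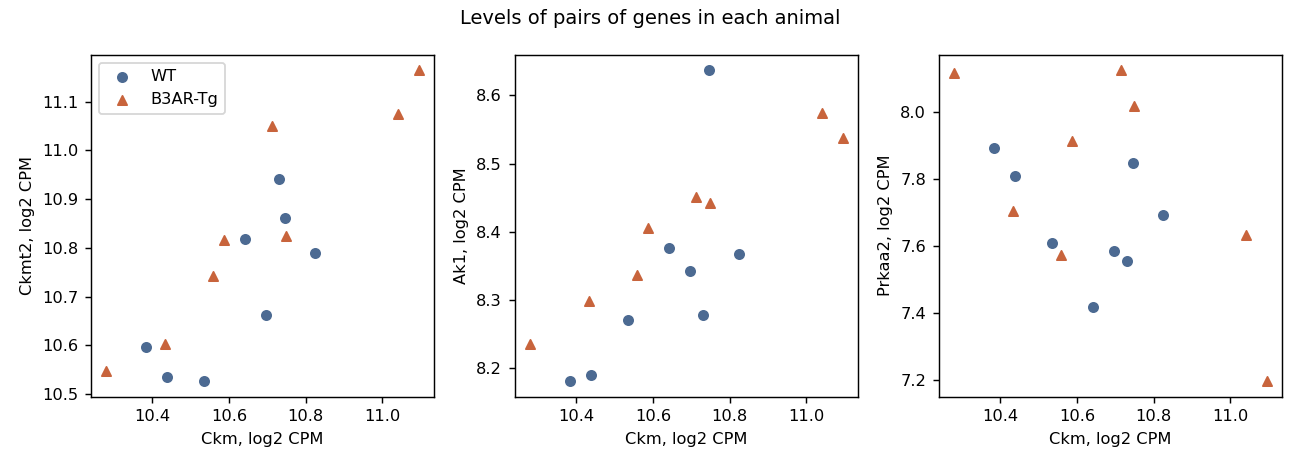
Log2 CPM of Ckm (horizontal axes) against Ckmt2, Ak1 and Prkaa2 (vertical axes), with 1 point per animal, circles for WT and triangles for B3AR-Tg. Triangles line up for Ckmt2 (r = 0.936) and Ak1 (r = 0.975) and do not for Prkaa2 (r = −0.589).

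The pattern of Ckm was shared with many other genes. After removal of the genotype means, the 3 genes outside the set most like Ckm over 16 animals, among 6137 genes with a mean of at least 10 CPM, were Map1lc3a (r = 0.930), Ctsl (r = 0.927) and Prdx5 (r = 0.923). Map1lc3a encodes an autophagosome protein, Ctsl a lysosomal protease and Prdx5 a peroxidase. Ckmt2 ranked 11th by this measure (r = 0.886), Ak1 was in place 80 (r = 0.793) and Prkaa2 had an r of −0.545. The genes most like Ak3, the member with the smallest p-value, were Rnf6 (r = 0.822), Tm9sf2 (r = 0.806) and Ube2r2 (r = 0.767). These are descriptions with no test, and depth and scaling are shared by all points.

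The level of the load markers was compared with the members within each genotype, since those markers were lower in B3AR-Tg. It is a transcript level and not a measurement of load. Each gene was set against the mean log2 CPM of the 5 load markers and against that of the 13 fibroblast and endothelial markers, 36 relations in all, and 0 passed after adjustment (2 had an unadjusted exact permutation p under 0.05). Both of these were Slc6a8 in WT. With the load level its r was 0.904 (exact permutation p = 0.00231, adjusted p = 0.0830) and its rho 0.881 (exact permutation p = 0.00724, adjusted p = 0.261), and r was 0.846 without the 2 animals farthest from the median load level. With the other-cell level its r was 0.855 (exact permutation p = 0.00620, adjusted p = 0.112) and its rho 0.833 (exact permutation p = 0.0154, adjusted p = 0.277), and r fell to 0.571 without 2 animals. WT replicates 2, 4 and 8, which had the 3 highest load levels, also had the 3 highest Slc6a8 levels in the group (128, 126 and 127 CPM). These 3 stood apart from the other 5 WT animals, whose load levels ended at 10.2, and with fewer than 6 animals in each cluster no relation was computed within them. In B3AR-Tg the r of Slc6a8 with the load level was 0.494 (exact permutation p = 0.213, adjusted p = 0.712) and rho 0.357, with an r of 0.089 without 2 animals. For Ckm, Ckmt2 and Ak1 in B3AR-Tg the r with the load level was −0.151, −0.048 and −0.199, and it became 0.839, 0.882 and 0.810 without replicates 7 and 8, whose load levels were the highest and the lowest. These trimmed values did not pass either (exact permutation adjusted p = 0.217, 0.15 and 0.231). With all 8 animals none of the 3 genes passed in B3AR-Tg, and the sign of r depended on replicates 7 and 8. The load level was 9.38 to 11.3 in WT and 7.48 to 9.60 in B3AR-Tg, on the scale of mean log2 CPM. The difference between means was −1.97 (exact permutation p = 0.000466), beside the fold difference of 0.986 in Slc6a8. The marker list was chosen with earlier results of these data known, so this p-value is no independent test.

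**Figure D4:**
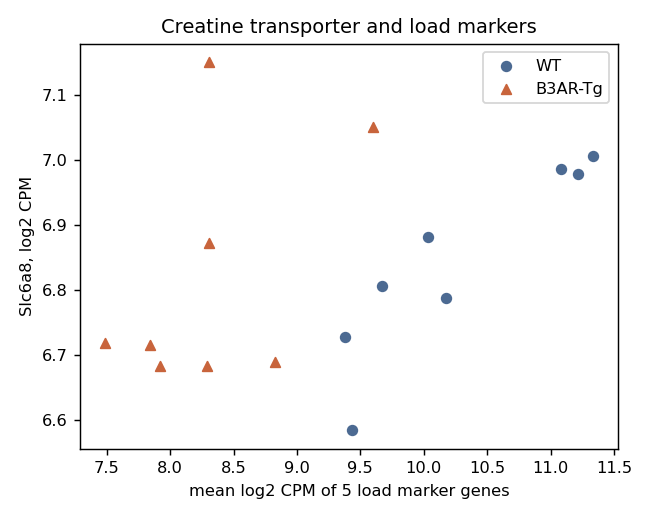
Log2 CPM of Slc6a8 (vertical axis) against the mean log2 CPM of 5 load marker genes (horizontal axis), 1 point per animal, circles for WT and triangles for B3AR-Tg. The WT points have an r of 0.904, which did not pass after adjustment, and most B3AR-Tg points lie at lower load levels with similar Slc6a8.

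The other 55 listed genes of the pathway were read from the same fit. Of these, 46 were tested, 2 were higher in B3AR-Tg (2.03% of all tested genes were) and 0 were lower (2.88% of all tested genes were). At an unadjusted p under 0.05 there were 10, of which 7 were higher, against 19.3% and 8.71% of all tested genes. Their median log2 fold change was 0.03, against 0.01 over all tested genes. The enzymes of creatine synthesis, best known from kidney and liver, were scarce. Gatm held 15 counts over all 16 libraries and was not tested, and Gamt averaged 1.85 ± 0.661 CPM for WT against 1.69 ± 0.651 CPM for B3AR-Tg (edgeR adjusted p = 0.893). The ubiquitous mitochondrial creatine kinase Ckmt1 held at most 29 counts in a library and was not tested either. Ak6, a further adenylate kinase, had a log2 fold change of −0.18 (edgeR adjusted p = 0.297). All 8 B3AR-Tg animals were below the WT median of Ak6, while Ak5, Ak7, Ak8 and Ak9 were too low to test.

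Among the 7 AMPK subunits 0 passed. The scaffold subunits had estimates of opposite sign. Prkab1 averaged 16.3 ± 2.88 CPM for WT against 21.6 ± 4.38 CPM for B3AR-Tg (difference of 0.41 in log2, edgeR adjusted p = 0.0891), and Prkab2 at 69.3 ± 23.4 and 52.3 ± 8.47 CPM (−0.41, edgeR adjusted p = 0.160). Per kilobase, Prkab1 made up 37.2% ± 9.10 of both scaffold transcripts in WT and 49.5% ± 7.49 in B3AR-Tg (SD, n = 8 each), with overlapping ranges. Prkag1, the gamma subunit with the highest level per kilobase, had a log2 fold change of 0.14 (edgeR adjusted p = 0.383), and Prkaa1 one of 0.11 (edgeR adjusted p = 0.688).

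Both genes that passed came from lists drawn up around AMPK, its substrates for Tbc1d4 and its upstream kinases and folliculin complex for Flcn. With 2 of 46 tested genes called, against 4.91% of all tested genes, no theme is read from them. Tbc1d4, a Rab GTPase-activating protein that holds back glucose transporter vesicles and is a target of AKT and AMPK, ran from 56.7 to 90.9 CPM in WT (median 75.7 CPM) and from 85.6 to 119 CPM in B3AR-Tg (median 107 CPM). Of the 8 transgenic animals, 7 lay above every WT animal. It rose by 0.49 ± 0.10 (SE) on the log2 scale (edgeR adjusted p = 0.00820). Flcn encodes folliculin, a partner of AMPK-binding proteins, and ran from 11.6 to 19.0 CPM in WT (median 14.9 CPM) and from 16.7 to 28.9 CPM in B3AR-Tg (median 22.01 CPM). It rose by 0.51 ± 0.13 (SE) on the same scale (edgeR adjusted p = 0.0336), and all 8 transgenic animals were above the WT median. The call of Flcn held in 18 of 28 alternatives. It was lost when any 1 of 9 animals was left out (WT replicates 2, 4, 5, 6 or 7, or B3AR-Tg replicates 1, 2, 3 or 5), with adjusted p-values of 0.0515 to 0.0830 and log2 differences of 0.45 to 0.50. With the fibroblast and endothelial marker level as a covariate, neither gene passed. The log2 difference was then 0.35 for Tbc1d4 (edgeR adjusted p = 0.367) and 0.15 for Flcn (edgeR adjusted p = 0.816).

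Other members of the lists did not pass. The AMPK substrates Acacb (log2 fold change 0.29) and Tbc1d1 (−0.67) had adjusted p-values of 0.0863 and 0.0718 by edgeR. Nt5e, a cell-surface enzyme that makes adenosine, averaged 28.6 ± 15.4 CPM for WT against 15.6 ± 6.44 CPM for B3AR-Tg (−0.87 in log2, edgeR adjusted p = 0.0737). Of the fibroblast and endothelial markers 4 of 7 and 2 of 6 were lower, and the part of those cells in Nt5e was not tested. The 5 nucleoside diphosphate kinases and the 10 tested genes of AMP and purine handling had medians of 0.02 and −0.06. Vdac1, the outer membrane channel through which nucleotides pass, had a log2 fold change of 0.19 (edgeR adjusted p = 0.122), with all 8 B3AR-Tg animals above the WT median. Slc25a4, the muscle ADP/ATP carrier, averaged 3812 ± 350.3 CPM for WT against 3835 ± 653 CPM for B3AR-Tg (edgeR adjusted p = 0.977).

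**Figure D5:**
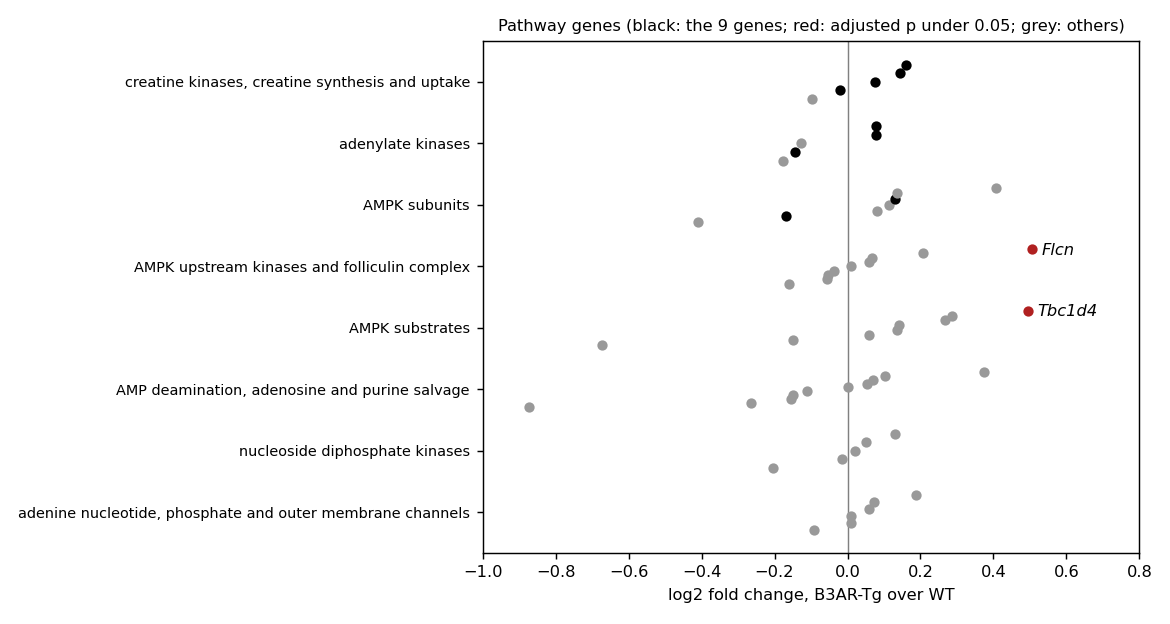
Log2 fold change of B3AR-Tg over WT (horizontal axis) for the tested genes of each pathway list (rows), with 1 point per gene, black for the 9 genes of the set, red for an adjusted p under 0.05 and grey for others. Tbc1d4 and Flcn are the 2 red points, and the black points lie between −0.17 and 0.16.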

How the data were processed

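RNA of myocytes from 8 WT and 8 B3AR-Tg mice was depleted of ribosomal RNA and sequenced from both ends as stranded libraries, per the labels' protocols. The authors deposited whole-number counts per gene, 1 column per animal matched by the name in its title. The submitters' processing notes name Salmon and GRCm39 without their roles, so the counts may be rounded estimates, and how shared reads were divided is not given in the sources used here. Labels state separate animals per library, and no pair of libraries within a genotype agreed within sampling noise (chi-square per gene 6.21 to 57.3).

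Genes were tested with edgeR 4.0.16 in R 4.3.3 (filterByExpr with a minimum count of 10 and total of 15, TMM factors, genotype only), two-sided, with a threshold of 0.05. Fold intervals are at 95%. The test was tested on simulated data. Log2 CPM used a prior count of 2. DESeq2 1.42.0 and limma 3.58.1 served as alternatives, with other scalings, filters, covariates, thinned counts and each animal left out. Correlations used exact permutation, and Spearman ranks used scipy 1.17.1. Transcripts were compared with BLAST 2.17.0 (at least 90% identity over 100 bases). Named genes are the 9 members, pathway genes past the threshold, and for Ckm and the member with the smallest p the 3 most similar genes. Others were chosen after their values were seen, as were the pairs of members. Members and lists were chosen with earlier results of these data known.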

Additional observations from a re-analysis of the deposited data

Results flagged for a closer look

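Values of each gene of the set were searched, in each genotype, for 1 animal standing far from the other 7 by Dixon's criterion at the 95% level. Of 18 such groups, 1 met it. Ak1 in WT replicate 7 was 398 CPM, the highest of the group, and its gap to the next animal was 0.571 of the group's range on the log2 CPM scale. Chance marks about 1 in 20 groups, which is 0.9 of the 18.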

How the results depend on the processing

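Of the 9 genes, 0 passed in each of the 28 alternatives (12 of the processing or model and 16 with 1 animal left out), and the lowest adjusted p of any member was 0.181. Member estimates changed sign in 11 of 252 values. Slc6a8, at −0.02 in log2, became 0.053 with library size only and 0.11 with the fibroblast and endothelial marker level as a covariate, and ran from −0.067 to 0.0078 with each animal left out. With that covariate Ckm became −0.19, Ckmt2 −0.10 and Ak1 −0.018, while Prkaa2 moved from 0.13 to 0.41, Ak4 from 0.08 to 0.24 and Ckb from 0.16 to 0.07, and 3 genes in all passed in place of 537. That covariate differed between genotypes, so its part and that of genotype cannot be told apart. Leaving out 1 animal gave 272 (WT replicate 4) to 675 (WT replicate 3) genes in all, with 277 without B3AR-Tg replicate 5 and 345 without B3AR-Tg replicate 8. The cause was not tested. Library size only moved the median of all genes to 0.08 and the split to 346 higher and 165 lower.

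With the replicate number of the titles as a replicate block, 230 genes and 0 members passed. The numbers gave no sign of pairing the animals. A correlation of deviations over 0.1 was found in 0 of 8 same-numbered pairs (highest 0.0935), and 0 of 8 WT animals correlated best with their own number. This check cannot show that no animals shared a batch. Relations of members to marker levels passed in 0 cases with all animals and in 0 without 2 animals. Prkag2 and Ckb had the lowest counts of the set, with 83 to 301 and 102 to 441 per library. With counts thinned to the smallest library, the SE of the log2 value was 0.153 for Prkag2 and 0.142 for Ckb. With all counts it was 0.156 and 0.137. The part of depth in the width of their intervals was not tested further.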
